A study of Rattus norvegicus with 2 samples.

Results

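Bone morphogenetic protein (BMP) ligands, their type I receptor Bmpr1a, the Id genes and the inhibitory SMADs were compared in the esophagus of rats dosed with OSU-HDAC42, an inhibitor of histone deacetylases, and of rats dosed with vehicle. The 10 genes are Bmp2, Bmp4, Bmp7, Bmpr1a, Id1, Id2, Id3, Id4, Smad6 and Smad7, and they were found on the array as every probe set that the platform annotation ties to exactly 1 gene with one of these symbols. This gave 20 of 20826 single-gene probe sets and 10 of 14217 genes. Both groups were male Sprague-Dawley rats, an outbred strain with no genetic change named in the labels, bought at an age of 5 to 6 weeks. The OSU-HDAC42 group received 7 gavage doses of 50 mg/kg body weight, 350 mg/kg in total, and the vehicle group was gavaged with vehicle. The esophagi were collected on day 15, 24 hours after dosing ended. Each group had 1 Affymetrix rat array, so no difference here has a replicate check, a standard error or a p-value, and the number of rats behind an array is not given in the labels.

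BMPs are secreted ligands that bind paired type I and type II serine/threonine kinase receptors. The receptors phosphorylate SMAD1, SMAD5 and SMAD9, which enter the nucleus with SMAD4 and switch on target genes, of which the Id genes are among the best known. Id proteins pair with E proteins, a class of helix-loop-helix transcription factors, and keep them off DNA, while SMAD6 and SMAD7 are induced by the pathway and dampen it. In the mouse, the balance of BMPs and their antagonist Noggin shapes the separation of the esophagus from the trachea and the stratification of its epithelium.

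Bmp2 was the member that differed most, 2.47-fold higher in the OSU-HDAC42 sample, and the Id genes went in different directions, with Id3 and Id1 higher and Id2 lower. Bmp4, Bmp7, Bmpr1a, Id4 and Smad7 differed less, and Smad6 was too dim to be compared. Differences are log2 intensity in the OSU-HDAC42 sample minus log2 intensity in the vehicle sample, after intensities under 16 were raised to 16, and each gene is represented by its brightest probe set. An expression floor was set at an intensity of 49.1, the median over all non-control probe sets, and 9 of the 10 genes reached it in either sample. Among these 9 genes, 6 were higher and 3 lower, with a median difference of 0.30, where the 9561 genes of the whole array that passed the floor had a median difference of -0.027 and 46.7% of them were higher. Bmp2 was the 1 member at least 2-fold higher, against a background of 1.88% of all genes above the floor, and no member was at least 2-fold lower, against 3.18%. The same 9 genes, with the same 6 higher, passed a floor on the mean of both arrays. With 9 genes, 1 gene past the threshold gives no measure of whether the set stands apart from the background.

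**Figure D1:**
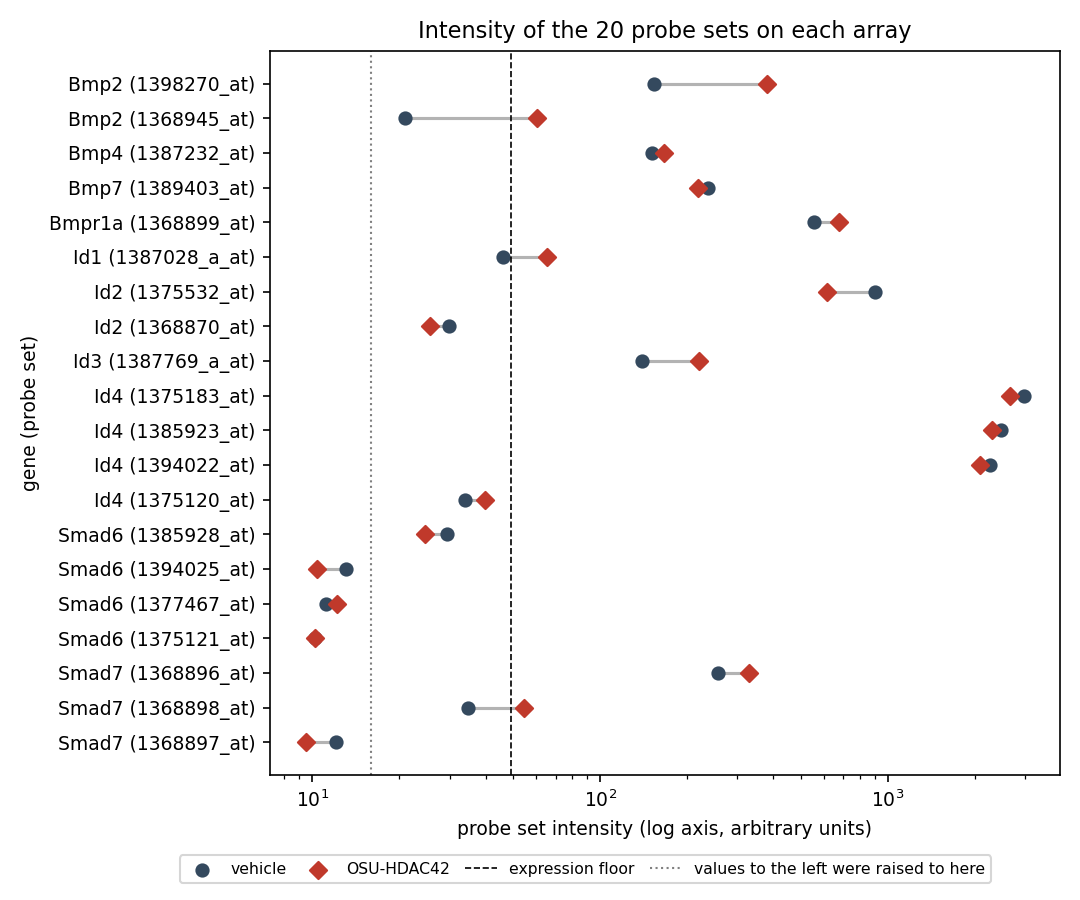
Intensity of the 20 probe sets of the 10 genes on the vehicle array (circles) and the OSU-HDAC42 array (diamonds), on a log axis, with 1 array per group and no error bars. The dashed line is the expression floor of 49.1 and the dotted line the intensity of 16 to which lower values were raised. Both Bmp2 probe sets lie well to the right on the OSU-HDAC42 array, and 3 of 4 Smad6 probe sets lie left of the dotted line on both.

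The only error that the data allow to be measured is that between probe sets of the same gene. Over 3643 pairs of probe sets above the floor, in 2126 genes, the gap between the differences of a pair had an SD of 0.41. This SD was 0.48 where the dimmer probe set of a pair had a mean intensity under 100, 0.38 between 100 and 500, and 0.27 at 500 or more. It holds the noise of both probe sets of a pair, so it overstates the noise of a single probe set. It covers probe noise and not the spread between rats or hybridisations. Across all genes above the floor the differences had an SD of 0.48, with the 5th and 95th percentiles at -0.85 and 0.71.

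Among the ligands, Bmp2, an inducer of bone and cartilage that also acts in epithelia and mesenchyme, was measured by 2 probe sets. On the brighter one, 1398270_at, the intensity was 381 in the OSU-HDAC42 sample and 154 in the vehicle sample. On the dimmer one, 1368945_at, it was 60.4 and 21.0. The log2 differences were 1.31 (2.47-fold) and 1.53 (2.88-fold). The brighter probe set was above the floor on both arrays. The dimmer one crossed it only on the OSU-HDAC42 array, where it was high, so its passing the floor is no separate support for the difference. By its brighter probe set, Bmp2 ranked 60 from the top among the 9561 genes above the floor, and 0.628% of those genes were as high or higher. Among genes in the same quartile of mean intensity, 2.13% had a difference of that size in either direction.

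Bmp4, the closest relative of Bmp2 among these ligands, stood at 166 in the OSU-HDAC42 sample and 151 in the vehicle sample. Its difference of 0.14 (1.10-fold) was matched or passed in size by 70.4% of genes above the floor. Bmp7, a ligand of the other main BMP subgroup, stood at 219 and 236, a difference of -0.11 (1.08-fold lower), matched or passed by 75.6%. Both values are small beside the SD of 0.41 between probe sets, and each gene had 1 probe set, so no second measurement was at hand. The difference of Bmp2 exceeded that of Bmp4 by 1.17 and that of Bmp7 by 1.42 on the log2 scale, gaps wider than that SD. The SD is one between probe sets of the same gene and does not measure how far apart different genes usually lie.

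Bmpr1a, also called ALK3, is a type I receptor through which both BMP2 and BMP4 signal. Its 1 probe set had an intensity of 679 in the OSU-HDAC42 sample and 553 in the vehicle sample. The difference of 0.30 (1.23-fold) was within the SD of 0.41 over all pairs of probe sets. It was slightly above the SD of 0.27 for pairs at an intensity of 500 or more. Each SD holds the noise of both probe sets of a pair, so it is a wide yardstick for a single probe set. A difference at least as large was found in 44.8% of genes above the floor.

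The 4 Id genes encode closely related proteins with a helix-loop-helix but no DNA-binding region, and they differed in direction. The promoters of all 4 are shown because members of 1 family differed in opposite ways, and to show what stands directly before each start. The sequences are the 250 bases before the annotated start of each gene, from RefSeq on the GRCr8 build, read 5′ to 3′ on the strand of the gene. Id1 lies on the plus strand at chr3:161671314-161671563 and Id3 on the plus strand at chr5:153656041-153656290. Id2 lies on the minus strand at chr6:47470996-47471245 and Id4 on the minus strand at chr17:16598294-16598543. Capitals mark each match to GGGCGG on either strand, the core of the GC box recognised by SP1-family factors.
Id1: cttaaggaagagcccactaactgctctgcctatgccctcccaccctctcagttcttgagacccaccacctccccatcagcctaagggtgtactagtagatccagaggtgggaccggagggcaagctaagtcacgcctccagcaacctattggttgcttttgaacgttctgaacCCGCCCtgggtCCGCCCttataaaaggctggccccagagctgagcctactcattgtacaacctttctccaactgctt
Id3: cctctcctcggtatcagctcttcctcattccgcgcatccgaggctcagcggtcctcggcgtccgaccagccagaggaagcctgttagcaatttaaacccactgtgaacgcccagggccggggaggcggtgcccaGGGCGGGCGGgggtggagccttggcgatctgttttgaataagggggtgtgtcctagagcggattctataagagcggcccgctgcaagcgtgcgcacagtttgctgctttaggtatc
Id2: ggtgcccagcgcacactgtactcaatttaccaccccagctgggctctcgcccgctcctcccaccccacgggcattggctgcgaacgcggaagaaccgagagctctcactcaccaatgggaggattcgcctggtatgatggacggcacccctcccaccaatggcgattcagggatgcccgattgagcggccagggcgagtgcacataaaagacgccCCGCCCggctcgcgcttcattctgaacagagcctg
Id4: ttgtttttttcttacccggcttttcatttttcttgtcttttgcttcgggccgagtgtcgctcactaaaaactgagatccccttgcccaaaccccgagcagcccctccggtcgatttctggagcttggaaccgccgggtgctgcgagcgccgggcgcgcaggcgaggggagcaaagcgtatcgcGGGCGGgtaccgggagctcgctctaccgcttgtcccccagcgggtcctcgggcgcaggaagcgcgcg

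Every Id promoter window held GGGCGG on 1 of its strands. In Id1 it stood 77 to 72 and 66 to 61 bases before the start, and in Id3 at 116 to 111 and 112 to 107, where the matches overlap each other. Id2 had 1 match at 35 to 30 bases and Id4 had 1 at 67 to 62. The same letters occurred on either strand in 30.5% of 33469 rat promoter windows of this length. The palindrome GGCGCC, a sequence to which BMP-activated SMADs bind, and CAGACA, which holds the SMAD box, were searched on both strands and were in none of the Id windows, while 8.69% and 17.2% of all windows held them. Of the 7 members with an entry in the promoter table, 6 held GGGCGG, 1 held GGCGCC (Smad7, at 2 places) and 1 held CAGACA (Bmp4, 36 to 31 bases before the start). Bmp2, Bmp7 and Smad6 had no entry. The windows with GGGCGG were 54.8% to 78% G and C, and that of Bmpr1a, without it, 28.4%. The shares over all windows were not matched for this content, so they give no measure of enrichment in the members. These matches describe letters in a short window, and no binding was measured. Sequence further from each start was not searched, so absence from a window does not mean absence from the gene.

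Id1, a BMP target expressed in endothelial and proliferating cells, was dim, with an intensity of 65.2 in the OSU-HDAC42 sample and 46.0 in the vehicle sample. It crossed the floor on the OSU-HDAC42 array only. The difference was 0.50 (1.42-fold higher), and 23.6% of genes above the floor had one as large in size, or 36.9% of those in its quartile of mean intensity. Where the dimmer of a pair had a mean intensity under 100, the SD between probe sets was 0.48.

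Id3, which overlaps with Id1 in function and is likewise induced by BMP, stood at 220 in the OSU-HDAC42 sample and 139 in the vehicle sample. Its difference of 0.66 (1.58-fold higher) was the second largest among the members. Of the genes above the floor, 14.6% had a difference as large in size, or 17.9% of those in its quartile of mean intensity. In the same direction, 6.07% were as high or higher, against 9.97% for Id1. At least 1.5-fold higher were 7.59% of genes, a threshold that Id3 and Bmp2 passed. No member was at least 1.5-fold lower, against 10.9% of genes. Id1 and Id3 were each measured by 1 probe set, so neither value has a second probe set beside it.

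Id2, an Id gene known for its role in lymphoid and mammary cells and for its daily rhythm in several mouse tissues, went the other way. Its brighter probe set, 1375532_at, stood at 616 in the OSU-HDAC42 sample and 902 in the vehicle sample, a difference of -0.55 (1.46-fold lower). The dimmer probe set, 1368870_at, stood at 25.7 and 29.9, below the floor on both arrays, with a difference of -0.22. At that signal the dimmer probe set is no separate support for the difference. Of the genes above the floor, 12.1% were as low or lower than the brighter one. In either direction, 20.6% of genes above the floor had a difference of that size, or 17.0% of those in its quartile of mean intensity.

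Id4, known in neural progenitors and mammary basal cells, was measured by 4 probe sets. On 1375183_at the intensity was 2660 in the OSU-HDAC42 sample and 2968 in the vehicle sample. On 1385923_at it was 2305 and 2481, and on 1394022_at 2088 and 2258. All 3 were slightly lower with OSU-HDAC42, by log2 differences of -0.16, -0.11 and -0.11, within 0.053 of each other. The remaining probe set, 1375120_at, was below the floor at 39.8 and 34.1 and differed by 0.23. Sizes of 0.16 or more were common, at 66.5% of all genes above the floor and 49.0% of the brightest quartile.

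Set against each other on the log2 scale, the difference of Id3 exceeded that of Id2 by 1.21 and that of Id4 by 0.82, and the difference of Id1 exceeded that of Id2 by 1.06 and that of Id4 by 0.66. All 4 gaps were wider than the SD of 0.41 between probe sets of 1 gene. That SD does not measure how far apart different genes usually lie. Across all genes above the floor the differences themselves had an SD of 0.48, so gaps between genes are commonly wider than 0.41. None of the 4 Id genes reached 2-fold in either direction.

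**Figure D2:**
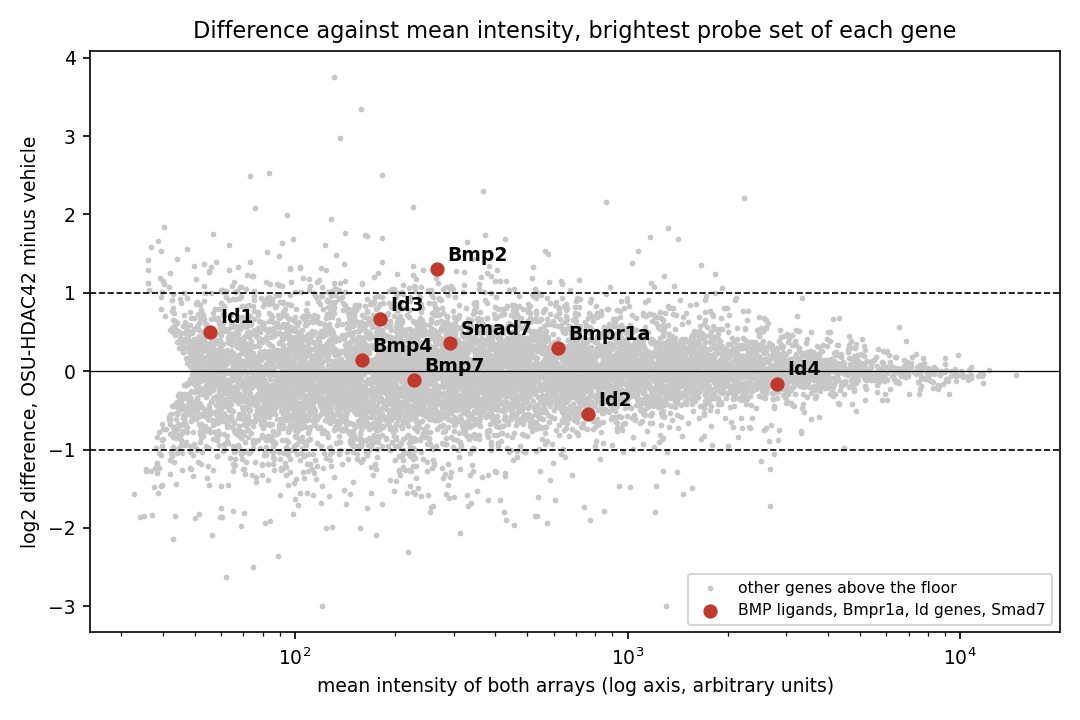
Log2 difference, OSU-HDAC42 minus vehicle, against the mean intensity of both arrays on a log axis, for the brightest probe set of each of 9561 genes above the expression floor. Named points are the 9 members above the floor, grey points are all other genes, and dashed lines mark 2-fold. Bmp2 at 1.31 lies above the upper line, Id3 at 0.66 and Id2 at -0.55 lie on opposite sides of zero, and the grey cloud narrows at high intensity.

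The inhibitory SMADs were represented by 4 probe sets for Smad6 and 3 for Smad7. Smad7 blocks both BMP and TGF-beta receptors. Its brightest probe set, 1368896_at, stood at 329 in the OSU-HDAC42 sample and 256 in the vehicle sample, a difference of 0.36 (1.28-fold). The second, 1368898_at, stood at 54.3 and 34.8, a difference of 0.64 (1.56-fold), and crossed the floor only on the OSU-HDAC42 array, where it was high. The third, 1368897_at, was under 16 on both arrays. Of the genes above the floor, 36.8% had a difference at least as large as that of the brightest Smad7 probe set.

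Smad6, which acts mainly on the BMP branch, did not reach the expression floor on either array. Its brightest probe set, 1385928_at, stood at 24.7 in the OSU-HDAC42 sample and 29.4 in the vehicle sample, a difference of -0.25. The other 3 probe sets were under 16 on both arrays, where no difference can be measured, and 1 of them held the same deposited value of 10.2 on both. A change in Smad6 was therefore not detectable at this signal.

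The other genes of the pathway were taken from 7 lists with 63 genes, of which 51 were measured and 32 were above the floor. None of the 32 was at least 2-fold higher or lower, against 1.88% and 3.18% of all genes above the floor. Of the 32 genes, 20 (62.5%) were higher and 12 lower, where 46.7% of all genes above the floor were higher. The median of the 32 was 0.17 against -0.027 over all genes. A floor on the mean of both arrays left 30 of them, 18 higher and 12 lower. Among other BMP ligands, 6 of 10 were measured and only Bmp6, a ligand close to Bmp7, was above the floor, at 406 in the OSU-HDAC42 sample and 508 in the vehicle sample (-0.33), while its other 2 probe sets above the floor differed by 0.027 and 0.18. Bmp3, Bmp5, Bmp8a, Bmp15 and Gdf6 were below the floor on both arrays.

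Among other BMP receptors and co-receptors, 7 genes passed the floor, 5 of them higher and 2 lower, with a median of 0.14. The co-receptor Rgma stood at 827 in the OSU-HDAC42 sample and 605 in the vehicle sample (0.45), and the type II receptor Acvr2a at 401 and 294 (0.45). The main type II receptor Bmpr2 stood at 74.4 and 86.0 (-0.21). Among the SMADs that carry the signal and the enzymes that turn them over, 3 of 5 were higher and 2 lower, with a median of 0.18. The ubiquitin ligase Smurf2 stood at 277 and 191 (0.54) and Smad5, an effector of BMP receptors, at 812 and 586 (0.47). The ubiquitin ligase Smurf1 stood at 319 and 283 (0.18) but at 33.3 and 49.9 (-0.58) on its other probe set above the floor. That probe set crossed the floor only on the vehicle array. The effector Smad9 was below the floor.

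Extracellular antagonists and modulators of BMPs were higher in 5 of 6 cases above the floor, with a median of 0.46. Over all genes above the floor, 46.7% were higher. The other 7 of the 13 measured antagonists and modulators were below the floor and are not in this count. Nbl1, also called DAN, stood at 1242 in the OSU-HDAC42 sample and 712 in the vehicle sample (0.80, 1.74-fold). Fstl1, a secreted glycoprotein that binds BMP4, stood at 4756 and 3376 (0.49). Grem1, an antagonist of BMP2 and BMP4 made by mesenchymal cells, stood at 1956 and 1398 (0.48). Twsg1, which binds BMPs together with chordin, was the lower gene at -0.26, with 0.022 on its other probe set above the floor. Fst, counted among the higher genes at 0.38, differed by -0.23 on its other one. Noggin (Nog) and Chrd were below the floor on both arrays.

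Of other BMP target genes, 3 of 6 measured were above the floor, with a median of 0.23. Dlx5, a homeobox gene of bone, stood at 50.0 in the OSU-HDAC42 sample and 28.9 in the vehicle sample (0.79) and crossed the floor only on the OSU-HDAC42 array, so the floor itself favoured a higher value. Hey1, a Notch and BMP target, differed by 0.23, and Dlx3, a homeobox gene of epidermal differentiation, by 0.11. Msx1 at -0.45 and Msx2 at -0.18 were below the floor on both arrays. With Dlx5 left out by a floor on the mean of both arrays, the median of the list was 0.17 over 2 genes. The E proteins, which Id proteins bind, differed by 0.36 for Tcf3, which also crossed the floor only on the OSU-HDAC42 array, -0.028 for Tcf4 and -0.12 for Tcf12. In the TGF-beta branch 7 genes passed the floor, 3 of them higher and 4 lower, with a median of -0.026. The ligand Tgfb3 stood at 40.8 and 66.5 (-0.70) and crossed the floor only on the vehicle array, where it was high. The ligand Tgfb2 stood at 173 and 113 (0.61), and the effector Smad3 at 859 and 691 (0.31).

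**Figure D3:**
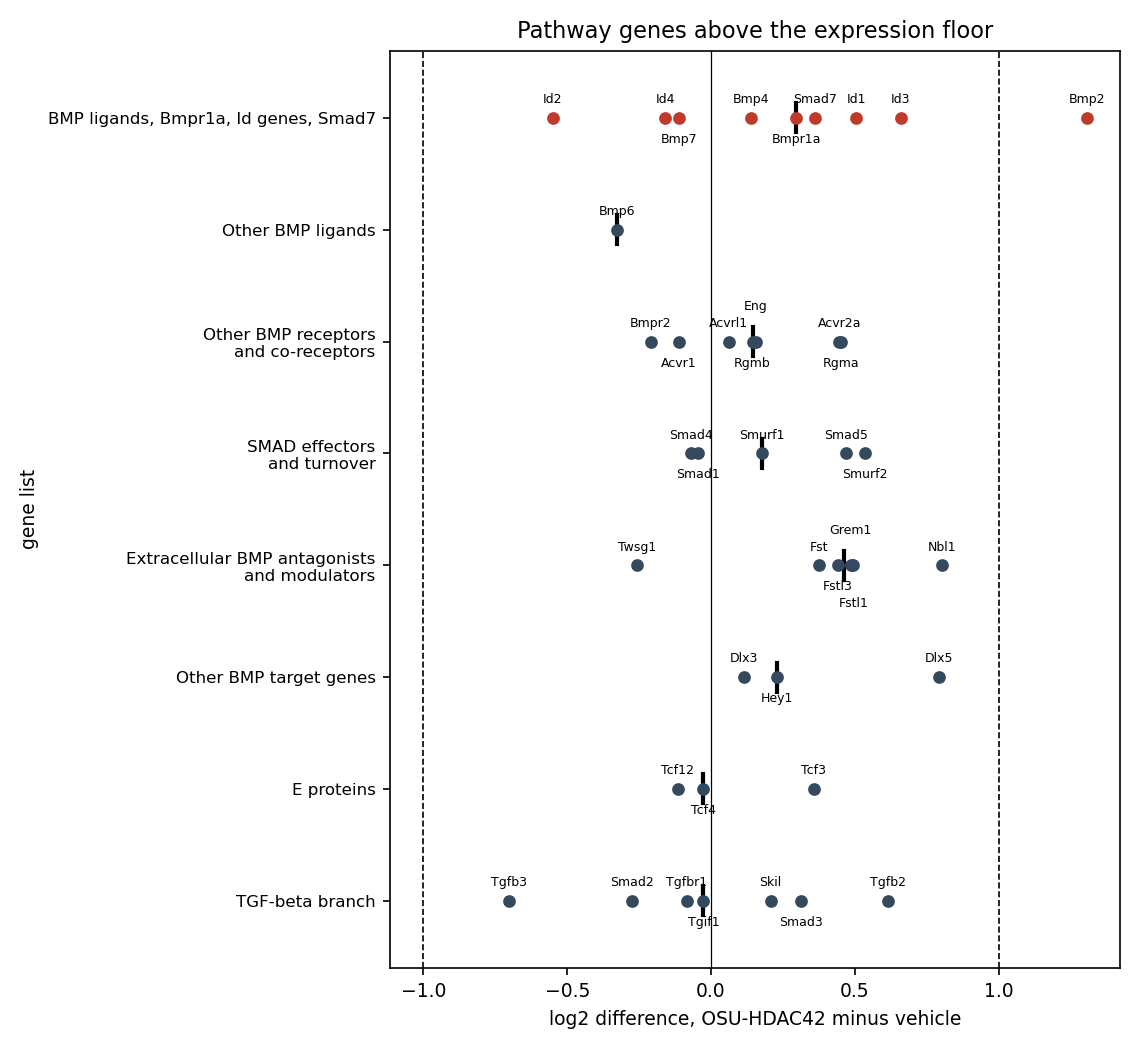
Log2 difference, OSU-HDAC42 minus vehicle, of genes above the expression floor, with 1 row per gene list, a point per gene and a short black bar at the median of each list. Dashed lines mark 2-fold, which Bmp2 alone passes in these lists. The members in the top row run from -0.55 for Id2 to 1.31 for Bmp2, and antagonists lie to the right of zero except Twsg1.

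Whole tissue was measured, so fewer cells of a type and less RNA per cell cannot be told apart. Markers of squamous epithelium, which lines the labelled tissue, were all above the floor. The esophageal keratin Krt13 stood at 14438 in the OSU-HDAC42 sample and 14947 in the vehicle sample, and Krt4 at 11052 and 11517. Markers of other cell types moved between the samples in which the members were compared. Skeletal muscle markers were lower in 9 of 9 cases (median -1.46, summed intensity 6187 against 14311). Smooth muscle markers were higher in 7 of 7 (median 0.62, summed 10156 against 6514), fibroblast markers in 7 of 7 (median 0.50, summed 20660 against 16410) and markers of dividing cells in 5 of 5 (median 0.80, summed 4428 against 2584). Endothelial markers were lower in 4 of 6 (median -0.24), although their summed intensity was 2668 against 2444. Vwf at -0.95 and Kdr at 0.34 mark their range, and Vwf crossed the floor only on the vehicle array. Basal keratinocyte markers had a median of -0.049 (summed 28873 against 29511). Of them, 1 of 6 was at least 2-fold lower, the hemidesmosome integrin Itgb4 at 171 against 416 (-1.28). Also at least 2-fold lower were 7 of 9 skeletal muscle markers, against 3.18% of all genes above the floor. At least 2-fold higher were Tagln of smooth muscle (1.24), Thy1 of fibroblasts (1.09) and Birc5 of dividing cells (1.32), against 1.88%. Suprabasal markers had a median of -0.055 (summed 40859 against 42324), with the envelope precursor Ivl at 293 against 194 (0.60) and Evpl at -0.69, and macrophage markers one of 0.15 (summed 565 against 501). Every measured marker was above the floor on at least 1 array. The macrophage marker Cd68 had the same intensity of 220 on both arrays, a difference of 0. The part of these cell type differences in the values of Bmp2, the Id genes and the antagonists was not tested.

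**Figure D4:**
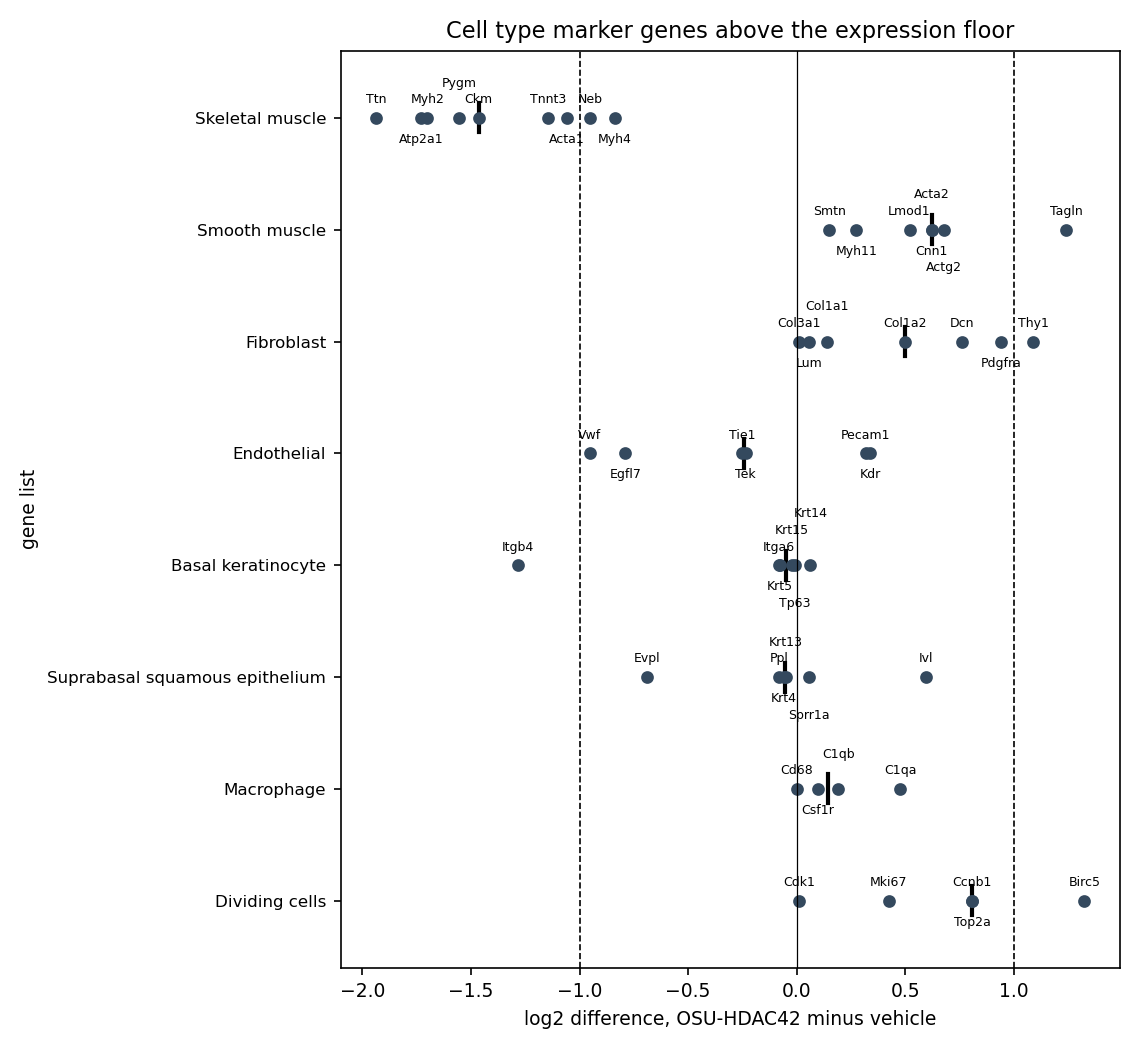
Log2 difference, OSU-HDAC42 minus vehicle, of cell type marker genes above the expression floor, with 1 row per cell type, a point per gene and a short black bar at the median. Dashed lines mark 2-fold. Skeletal muscle markers lie left of zero throughout. Smooth muscle, fibroblast and dividing cell markers lie right of it, Cdk1, Col3a1 and Lum only barely. Keratinocyte markers sit near zero apart from Itgb4, Evpl and Ivl.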

How the data were processed

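The deposited table gives 1 intensity per probe set and array on a linear scale, a unit read from the values. Per the submitters' processing notes the tools were GCOS and RMA, whose roles and versions, like any scaling between arrays, are not given in the sources used here. The deposited intensities outside 57 control probe sets spanned 4.54 to 14438 (OSU-HDAC42, median 48.4) and 4.48 to 14947 (vehicle, median 49.1). Intensities under 16 were raised to 16 (28.4% and 29.2% of probe sets), log2 was taken, and no further normalization was applied. Of 31042 non-control probe sets, 20826 carry 1 gene symbol, and 436 with several and 9780 with none were not used. No probe set with several symbols named a member. The brightest probe set stood for a gene, and a gene was above the floor when its brighter array reached 49.1. With 1 array per group there is no test, and the number of arrays limits the precision. The members and lists were chosen with earlier results of these data known. From each list the text gives every gene past 2-fold and the 3 largest differences above the floor, and marker lists are given by counts. Other genes named, such as Twsg1, Nog and Krt13, were picked with their values in view. The calling of folds was tested on simulated data, with changes set past the threshold and less noise than between probe sets here. That checks the calling itself and gives no error rate for these data. Python 3.11.15, numpy 2.4.6, pandas 2.3.3, statsmodels 0.14.6 and matplotlib 3.10.9 were used. Alternatives were other raised values, scalings, probe set rules, floors and thresholds.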

Additional observations from a re-analysis of the deposited data

How the results depend on the processing

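Over 6 alternatives (no value raised, values under 32 raised to 32, arrays centred, quantile normalization, a lowess trend removed, and the mean of all probe sets), 24 of 60 alternative values of member differences equalled the reported value, because the alternative left them untouched (bright genes when low values were handled otherwise, genes with 1 probe set). The other 36 lay within the SD of 0.41 between probe sets of the reported value. All kept their sign but Smad6 with values under 32 raised to 32, which became 0. The alternatives reuse the same arrays, so small shifts were likely in advance and give no measure of the spread between rats or arrays. Bmp2 ranged from 1.31 to 1.42, Id3 from 0.66 to 0.69, Id1 from 0.50 to 0.53, Id2 from -0.58 to -0.38, Smad7 from 0.33 to 0.38 and Id4 from -0.18 to -0.038. The number of members higher stayed at 6 of 9 under each of the 6. Bmp2 stayed the 1 member at least 2-fold higher under those 6 and with other floors. A floor on the mean of both arrays, chosen after seeing the data, also left 6 members higher and Bmp2 past the threshold. By construction, a 1.5-fold threshold gave 2 members higher, Bmp2 and Id3, and a 3-fold threshold gave 0. No member was lower past the threshold under any of the 10 alternatives run. No paired analysis was possible because there is 1 array a group. Low signal limits Smad6, Id1 and the dimmer probe sets of Bmp2, Id2 and Smad7.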

Other observations

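Several other pathway genes had probe sets above the floor that differed in direction, so that their values depend on the probe set read. For Bmp6 the brightest differed by -0.33 and the other 2 above the floor by 0.027 and 0.18. For Smurf1 the probe sets differed by 0.18 and -0.58, the latter crossing the floor only on the vehicle array. The activin and BMP antagonist Fst differed by 0.38 and -0.23, and Twsg1 by -0.26 and 0.022. For Smurf2 both probe sets were higher, at 0.54 and 0.60, and for Smad5 all 3 above the floor were higher, at 0.47, 0.18 and 0.16. A second probe set of Tcf12, below the floor at 45.5 in the OSU-HDAC42 sample and 24.3 in the vehicle sample, differed by 0.90, against -0.12 on the brightest. Nog, below the floor at 17.2 and 26.9, differed by -0.65.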
